A study of Mus musculus with 18 samples.

Results

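Autosomal gene expression in the liver of RepB-/- mice was compared with WT liver, using 3 libraries of each genotype. RepB-/- mice carry a deletion of repeat B of Xist, made by injecting zygotes with Cas9 and a pair of guide RNAs, and WT mice carry the intact gene. The liver libraries are poly(A) RNA-seq. The study's methods describe stranded libraries for MEFs and do not name liver there, and the labels give neither the age nor the sex of the livers nor whether each library came from a separate animal, so the p-values below measure the spread between these libraries. Of 51826 genes listed, 47607 lie on chromosomes 1 to 19, and 15550 of these passed the filter on low counts. The series holds 18 libraries in all, of which 6 are primary MEFs (mouse embryonic fibroblasts), given below only beside the liver values, and 6 are brain libraries that were not analysed here.

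Xist is the noncoding RNA that coats the inactive X chromosome. Its repeat B binds hnRNPK, which brings Polycomb repressive complex 1 to the chromosome, and Polycomb complexes lay down the repressive marks that help keep X-linked genes silent. It is known for acting in cis, on the chromosome that transcribes it. Liver consists mainly of hepatocytes, which make plasma proteins, glucose and lipids, and in the fetus and newborn it is also a site of blood formation.

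The guides that define the RepB-/- genotype are shown because every comparison below rests on that deletion, with no letters in capitals.

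guide 1: gttgatgctatattgactaa

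guide 2: gggataggtctgaaagtatc

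The libraries did not all match their group. The depth lay between 37682201 and 51542709 counts per library. RepB-/- 1 and WT 1 stood apart from the other 4 libraries, with Afp, the fetal serum protein, at 507 and 369 CPM (each gene's counts scaled to a common library size) against 2.79 to 6.04, and Mup3, a major urinary protein of mature liver, at no more than 0.968 CPM against 1821 to 3685. The test therefore has a term for replicate 1 against replicates 2 and 3, and fold changes are RepB-/- over WT within these strata. Without that term the biological coefficient of variation was 51.2%, against 32.7% with it. The library labelled RepB-/- replicate 2 held 4 counts of Xist, against 14494 to 26345 in the other 5, and 4342 counts summed over Uty, Kdm5d, Eif2s3y and Ddx3y, which lie on the Y chromosome, against 0 or 1. The Xist and Y-linked counts of the library labelled RepB-/- replicate 2 are those of a male liver, and the paper writes males with the deletion as RepB-/Y. The calls, and the list medians that moved most, are given with and without that library. Counts of consistent genes and statements on overlap include it throughout and were not repeated without it. Hepatocyte markers (8 of 8 tested) summed to between 110950 and 194380 CPM in every library, with no gap between the genotypes.

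Few autosomal genes separated the genotypes. With edgeR's quasi-likelihood test and Benjamini-Hochberg adjustment, 3 autosomal genes rose in RepB-/- liver and 4 fell, which are 0.0193% and 0.0257% of those tested. Over all 16080 genes of every chromosome the counts were 3 (0.0187%) and 6 (0.0373%). At an unadjusted p under 0.05 there were 707 higher genes (4.55%) and 518 lower genes (3.33%). DESeq2 with the same terms called 180 higher (1.16%) and 127 lower (0.817%) autosomal genes, among them all 7 of the edgeR calls. In a simulation with the depths and variation of these libraries, over 15558 genes, 200 genes with a mean of at least 1 CPM were changed. The edgeR test found 16.3% of genes changed 2-fold, 76% of those changed 4-fold and 96% of those changed 8-fold. It also called 12 unchanged genes. Far more genes were changed there than were called in liver, which makes the adjusted threshold easier to pass. These shares therefore do not carry over to the liver comparison.

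A gene is called consistent here if RepB-/- 1 lay on one side of WT 1 and both RepB-/- 2 and RepB-/- 3 lay on the same side of both WT 2 and WT 3. By this rule 1849 autosomal genes (11.9%) were consistently higher and 1855 (11.9%) consistently lower. A difference of at least 2-fold in both strata was found for 169 of the higher genes (1.09% of those tested) and 107 of the lower genes (0.688%). The median log2 fold change of all autosomal genes tested was 0.01, and among the 19 autosomes the median ran from -0.06 on chromosome 13 to 0.04 on chromosome 7. Chromosome 13 had 9.14% consistently higher and 15.8% consistently lower genes, and chromosome 7 had 14.1% and 10.7%.

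**Figure D1:**
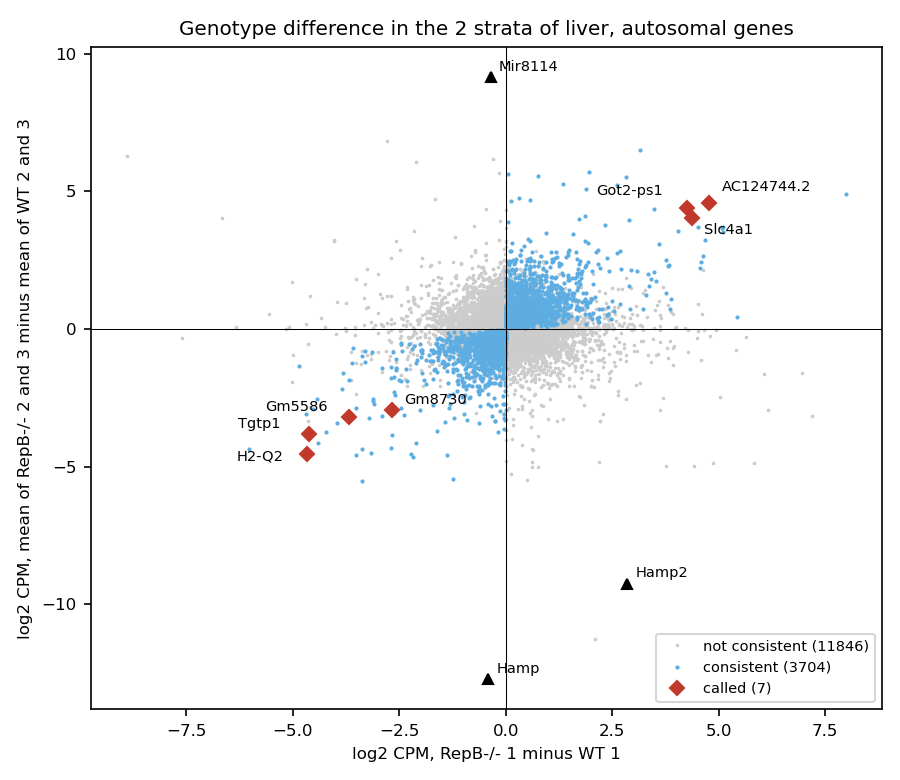
Each point is an autosomal gene, with the log2 CPM difference of RepB-/- 1 and WT 1 on the x axis and the difference of the means of replicates 2 and 3 on the y axis. Consistent genes are blue, the 7 called genes are red diamonds far along the diagonal, and Hamp, Hamp2 and Mir8114 are triangles that lie near the y axis or off the diagonal.

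The protein-coding gene that rose was Slc4a1 (chr11:102348824-102366203 on GRCm38, minus strand), the anion exchanger band 3 of the red cell membrane. Its level was 57.5 CPM in RepB-/- 1, 1.47 in RepB-/- 2 and 2.22 in RepB-/- 3, against 2.74, 0.0517 and 0.0845 in WT 1, 2 and 3. Each RepB-/- library exceeded the WT library or libraries of its stratum, although RepB-/- 2 and 3 lay below WT 1. The values of WT 2 and WT 3 rest on 2 and 4 counts. The log2 fold change was 4.50 ± 0.29 (SE) with an edgeR adjusted p of 0.00914. Without the library labelled RepB-/- replicate 2 it was 4.58, with an adjusted p of 0.0455. The call was lost without RepB-/- 1 (adjusted p = 0.122), WT 1 (0.0891), WT 2 (0.0741) or WT 3 (0.0592), each by edgeR, and the adjusted p was 1 without the term for replicate 1.

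H2-Q2 (chr17:35342242-35346762, plus strand) encodes a class I heavy chain of the Qa region of the mouse major histocompatibility complex. It stood at 0.336, 0.913 and 0.875 CPM in RepB-/- 1, 2 and 3 and at 9.59, 17.1 and 28.2 CPM in WT 1, 2 and 3. The genotypes did not overlap. H2-Q2 fell by 4.71 on the log2 scale (SE 0.28, adjusted p = 0.00914 by edgeR), and without the library labelled RepB-/- replicate 2 the log2 fold change was -4.75 with an adjusted p of 0.0899.

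The other H2-Q genes did not pass the test. H2-Q10, a secreted class I protein made by hepatocytes, was consistently lower at 153, 1357 and 1130 CPM against 378, 1726 and 1920, a log2 fold change of -0.80 ± 0.25 with an unadjusted p of 0.0158. H2-Q4 had a log2 fold change of 0.06 ± 0.26 and H2-Q7 one of -0.03 ± 0.37. The 7 H2-Q genes tested are close copies in sequence, and how reads shared among them were counted is not given in the sources used here, so the level of a single copy is uncertain.

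Tgtp1 (chr11:48985327-48994172, minus strand) is an interferon-induced GTPase that takes part in defence against intracellular pathogens. Its level was 2.07, 1.73 and 1.90 CPM in the RepB-/- libraries and 51.9, 32.3 and 21.2 CPM in the WT libraries. The RepB-/- values lay close together and all WT values lay above them. Tgtp1 fell by 4.14 on the log2 scale (SE 0.28, edgeR adjusted p = 0.00914), and without the library labelled RepB-/- replicate 2 the log2 fold change was -4.18 with an adjusted p of 0.103. Its near-identical neighbour Tgtp2 stood at 5.49, 5.78 and 8.02 CPM against 64.4, 7.85 and 7.88, so WT 1 alone was high, and its log2 fold change of -1.22 ± 0.71 did not pass. Reads shared by Tgtp1 and Tgtp2 make the level of either uncertain.

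No other GTPase of this kind passed the test. A family of 17 such genes tested, which includes Tgtp1 and Tgtp2, was looked up after the values were seen. Of these, 4 were consistently lower, Tgtp1 among them, and 1, Gbp9, was consistently higher. Over all autosomal genes 11.9% were consistent in each direction. Gbp9 and Gbp11 were the 2 with a log2 fold change above 0 (0.44 ± 0.23 and 1.39 ± 0.60). Gbp2b, a guanylate-binding protein, stood at 3.08, 4.79 and 8.20 CPM in RepB-/- liver and at 12.2, 10.4 and 12.4 CPM in WT liver. Igtp, an immunity-related GTPase, stood at 32.8, 63.2 and 94.1 CPM against 81.7, 117 and 94.0, and was not consistent.

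The promoters of the 2 called protein-coding genes that fell are shown with the motifs found in them, as the 250 bases before the start in RefSeq's annotation of GRCm38.p6. Capitals mark a GATA motif (AGATAA or TGATAA) or the core of an interferon-stimulated response element (TTTC, any 2 bases, TTTC), each searched on both strands. H2-Q2 is at chr17:35342057-35342306 on the plus strand and Tgtp1 at chr11:48992247-48992496 on the minus strand. RefSeq's starts differ from those of the liver annotation. The Tgtp1 window lies inside the gene interval given above, and the H2-Q2 window runs past the gene start given above.

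H2-Q2: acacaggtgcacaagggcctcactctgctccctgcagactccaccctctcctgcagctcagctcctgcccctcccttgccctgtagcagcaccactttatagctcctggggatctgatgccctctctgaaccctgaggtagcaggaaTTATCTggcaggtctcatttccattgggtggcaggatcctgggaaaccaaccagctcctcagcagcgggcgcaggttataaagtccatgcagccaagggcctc

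Tgtp1: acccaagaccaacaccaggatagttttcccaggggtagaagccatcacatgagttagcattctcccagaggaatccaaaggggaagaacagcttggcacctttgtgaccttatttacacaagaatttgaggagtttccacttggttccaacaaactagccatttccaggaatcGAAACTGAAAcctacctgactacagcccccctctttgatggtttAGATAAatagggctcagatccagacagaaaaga

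The interferon-stimulated response element core was found in Tgtp1 and not in these 250 bases of H2-Q2. Among 27025 gene promoters of the same length, 3.04% held that core and 17.0% held a GATA motif. Among the promoters of 18 interferon-stimulated genes, 8 held the core.

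The 4 other called autosomal genes are processed pseudogenes, which are intronless copies of an mRNA. They were compared with all protein-coding transcripts of GENCODE M21, and for each the closest gene and 60 aligned bases of its coding sequence are shown, because reads of the pair can be told apart only at the bases that differ. Capitals mark those bases, and the stretch with the most differences was chosen.

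Got2-ps1 (chr5:138365064-138365123, minus strand): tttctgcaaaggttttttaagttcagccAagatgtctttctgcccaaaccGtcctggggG

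Got2: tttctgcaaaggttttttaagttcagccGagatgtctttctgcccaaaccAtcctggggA

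AC124744.2 (chr13:3299068-3299127, plus strand): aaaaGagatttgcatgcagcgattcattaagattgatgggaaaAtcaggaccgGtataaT

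Rps4x: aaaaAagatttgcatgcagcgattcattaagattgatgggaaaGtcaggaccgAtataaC

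Gm5586 (chr7:16719851-16719910, minus strand): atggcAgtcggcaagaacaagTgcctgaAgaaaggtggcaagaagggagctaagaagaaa

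Rps3a1: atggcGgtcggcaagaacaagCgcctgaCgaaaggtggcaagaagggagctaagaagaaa

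Gm8730 (chr8:102865352-102865411, minus strand): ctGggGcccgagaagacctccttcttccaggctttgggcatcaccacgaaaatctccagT

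Rplp0: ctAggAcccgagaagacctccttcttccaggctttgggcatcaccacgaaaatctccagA

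Got2-ps1 matched Got2, the mitochondrial aspartate aminotransferase, with 99.2% identity over 1293 bases and 11 mismatches. It stood at 26.5, 29.1 and 14.6 CPM in RepB-/- 1, 2 and 3 and at 1.34, 0.646 and 1.33 CPM in WT 1, 2 and 3, without overlap. The log2 fold change was 4.40 ± 0.40 with an edgeR adjusted p of 0.0356. With the replicate number as a block in place of the term for replicate 1, the adjusted p was 0.0820. Got2 itself was at 530 to 647 CPM in RepB-/- liver and 634 to 679 CPM in WT liver, with a log2 fold change of -0.16 ± 0.18.

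AC124744.2 matched the X-linked ribosomal protein gene Rps4x with 98.1% identity over 788 aligned positions, 8 mismatches and 7 gap letters. Its levels were 51.7, 27.2 and 44.0 CPM in the RepB-/- libraries and 1.85, 0.930 and 2.15 CPM in the WT libraries. The lowest RepB-/- library was far above the highest WT library. The log2 fold change was 4.61 ± 0.38 with an edgeR adjusted p of 0.0243, and Rps4x had a log2 fold change of 0.20 ± 0.19.

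Gm5586 matched Rps3a1, a protein of the small ribosomal subunit, with 98.5% identity over 795 bases. It was at 0.968, 1.27 and 1.23 CPM in RepB-/- liver and at 12.9, 11.2 and 12.7 CPM in WT liver, without overlap. Gm5586 fell by 3.41 on the log2 scale (SE 0.23, edgeR adjusted p = 0.00914). Rps3a1, which did not pass, ranged from 192 to 340 CPM in RepB-/- and from 157 to 222 CPM in WT liver, a log2 fold change of 0.46 ± 0.19.

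Gm8730 matched Rplp0, a protein of the ribosomal stalk, with 98.7% identity over 954 bases. Its levels were 12.9, 12.9 and 8.08 CPM in RepB-/- and 82.6, 70.6 and 86.2 CPM in WT liver, again without overlap. Gm8730 fell by 2.83 on the log2 scale (SE 0.23, edgeR adjusted p = 0.0242, and 0.0629 with the replicate block). Rplp0 had a log2 fold change of 0.56 ± 0.27.

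Processed pseudogenes made up 772 of the autosomal genes tested. Of these 17.6% were consistent in either direction, against 24.1% of 13218 protein-coding genes and 24.8% of 1560 genes of all other biotypes. A consistent difference of at least 4-fold in both strata was found for 1.55% of the pseudogenes, the 4 called ones included. It was found for 0.303% of protein-coding genes, 1.09% of the other biotypes and 0.444% of all autosomal genes tested. The sources used here do not give how reads that match both a pseudogene and its parent gene were counted, so the level of each pseudogene is uncertain. Without the library labelled RepB-/- replicate 2 the adjusted p of the 4 pseudogenes lay between 0.0899 and 0.121, and their log2 fold changes kept their direction. When each of the 6 libraries was left out in turn, H2-Q2 was called in 2 fits (without WT 2 or WT 3), Tgtp1 and AC124744.2 in 1 (without WT 3), and Gm5586, Gm8730 and Got2-ps1 in 0, with edgeR adjusted p-values from 0.0527 to 0.134 for these last genes.

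**Figure D2:**
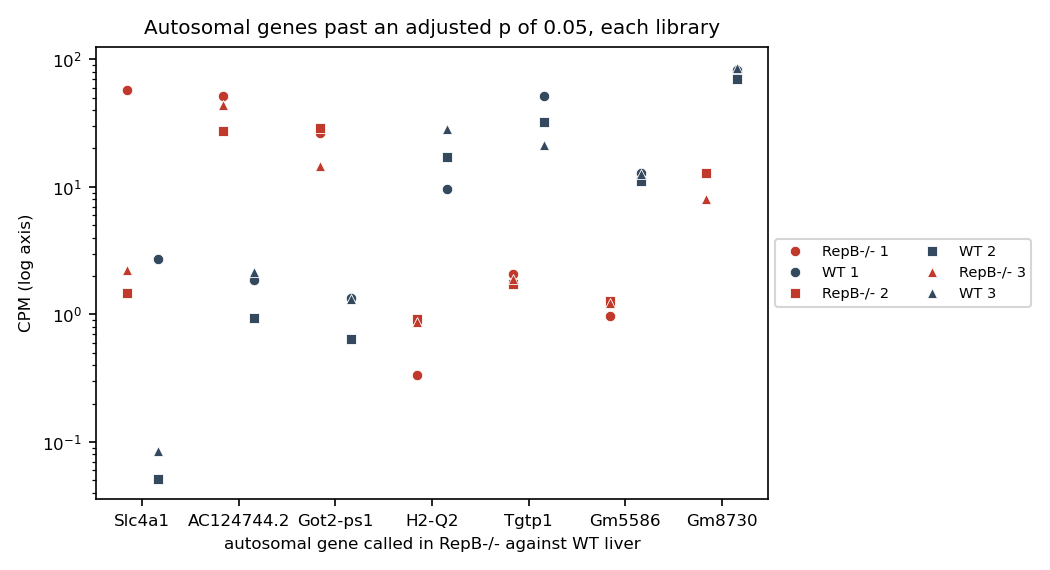
CPM on a log axis of the 7 called autosomal genes in each liver library, with RepB-/- libraries in red, WT libraries in dark blue and the replicate number given by the marker. The genotypes do not overlap except for Slc4a1, whose 2 replicate 1 libraries lie above the other libraries of their genotype.

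**Figure D3:**
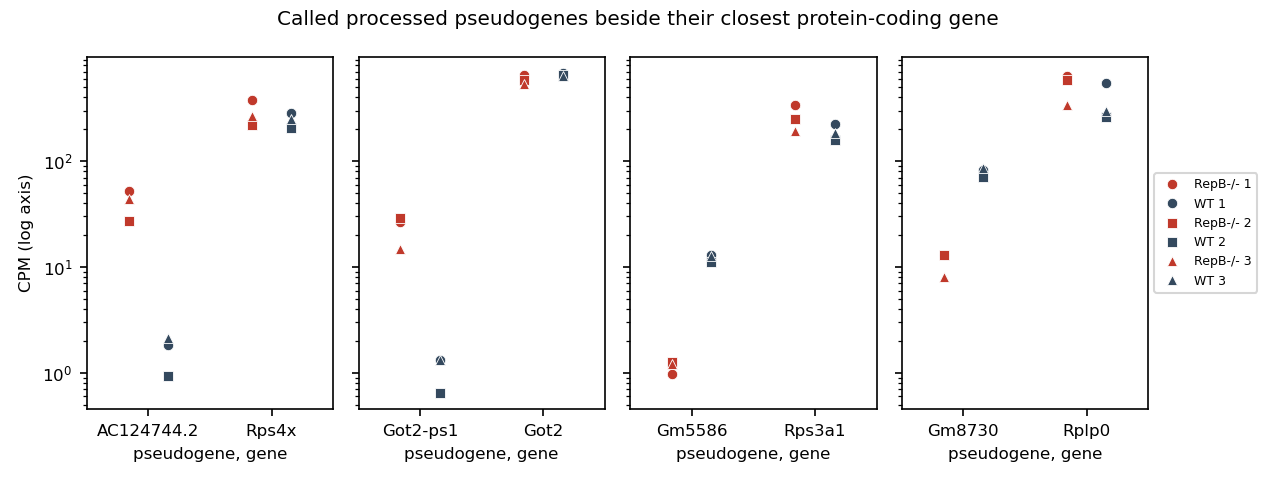
CPM on a log axis of each called processed pseudogene and of its closest protein-coding gene in each liver library, with colours and markers by genotype and replicate. The pseudogenes are separated by genotype, and the libraries of the 4 protein-coding genes lie within or near each other's range.

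Most genes of red cells had higher levels in RepB-/- liver. Of the 9 erythroid genes tested, 1 was called (Slc4a1), 7 were consistently higher and 0 consistently lower, and all 7 were at an unadjusted p under 0.05. The median log2 fold change of the list was 2.31, and 1.95 without the library labelled RepB-/- replicate 2. DESeq2 called 6 of them, all higher. Over all autosomal genes tested 11.9% were consistent in each direction, and 4.55% were higher at an unadjusted p under 0.05 in edgeR. As higher, edgeR called 0.0193% of them and DESeq2 1.16%. These shares serve for the cell type lists below as well. All lists were chosen with earlier results of these data known.

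The alpha-globin gene Hba-a1 stood at 1598, 718 and 466 CPM in RepB-/- 1, 2 and 3 and at 570, 94.5 and 65.9 CPM in WT 1, 2 and 3. The beta-globin gene Hbb-bs stood at 1322, 705 and 431 CPM against 498, 103 and 77.2 CPM. In both genes each RepB-/- library lay above WT within its stratum, and the log2 fold changes were 2.43 ± 0.39 and 2.25 ± 0.37, with edgeR adjusted p-values of 0.205 for each.

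Tfrc, the transferrin receptor, was at 173, 75.5 and 79.9 CPM against 115, 59.8 and 47.8 CPM (log2 fold change 0.55 ± 0.16). The erythroid transcription factor Klf1 had 7.58, 1.81 and 3.73 CPM against 1.41, 2.89 and 1.84 CPM, so RepB-/- 2 lay below WT 2 and WT 3. The erythropoietin receptor Epor had a log2 fold change of -0.07 ± 0.36. In bulk libraries a larger share of red cell precursors or blood and more RNA per cell cannot be told apart.

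The promoters of a pair of globin genes are shown because these genes were higher together. The window is again the 250 bases before the start in GRCm38.p6, at chr11:32283422-32283671 on the plus strand for Hba-a1 and chr7:103827929-103828178 on the minus strand for Hbb-bs. Capitals mark a GATA motif or the CACCC motif CCACACCC, searched on both strands.

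Hba-a1: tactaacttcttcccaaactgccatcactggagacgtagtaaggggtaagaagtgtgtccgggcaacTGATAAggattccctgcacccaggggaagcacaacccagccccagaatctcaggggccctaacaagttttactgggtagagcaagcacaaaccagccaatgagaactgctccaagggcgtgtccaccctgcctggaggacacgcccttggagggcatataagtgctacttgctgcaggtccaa

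Hbb-bs: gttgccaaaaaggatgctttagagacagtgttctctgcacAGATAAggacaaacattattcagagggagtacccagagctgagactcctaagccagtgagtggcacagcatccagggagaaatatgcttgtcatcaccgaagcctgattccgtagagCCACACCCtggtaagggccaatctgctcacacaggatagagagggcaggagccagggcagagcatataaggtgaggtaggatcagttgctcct

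Of the 8 erythroid genes with a promoter in the RefSeq table, 6 held a GATA motif, against 17.0% of all 27025 promoters. The CACCC motif was in 1 of the 8 and in 3.19% of all promoters.

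Genes of neutrophils, megakaryocytes and B cells had their highest summed levels in RepB-/- 1. The 8 tested genes of neutrophils and their precursors had a median log2 fold change of 2.03 with 3 consistently higher. The summed level of all 9 listed was 683 CPM in RepB-/- 1 against 63.3 CPM in WT 1, but 16.3 and 7.23 CPM in RepB-/- 2 and 3 against 5.63 and 7.31 CPM in WT 2 and 3. Ngp, a neutrophil granule protein, was at 205, 2.22 and 2.27 CPM against 13.9, 0.775 and 1.33 CPM. The 5 megakaryocyte genes listed, 4 of them tested, summed to 151 CPM in RepB-/- 1 and 16 CPM in WT 1. The 4 B cell genes, with a median log2 fold change of 0.40, summed to 46.8 CPM in RepB-/- 1, 10.1 CPM in WT 1 and at most 3.21 CPM in the other libraries. No gene of these lists was called by edgeR, while DESeq2 called 2 neutrophil genes and 1 megakaryocyte gene as higher.

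No marker of the other liver cells was called by edgeR, while DESeq2 called 2 stellate and mesenchymal genes, 1 endothelial gene and 1 adipocyte gene as higher. The 10 Kupffer cell and macrophage genes had a median of 0.08 with 0 consistent in either direction, and their sum was highest in WT 1 at 1239 CPM. The 10 stellate and mesenchymal genes all had a log2 fold change above 0, with a median of 0.37 and 4 consistently higher. Col1a1, a chain of type I collagen, stood at 170, 28.5 and 21.9 CPM in RepB-/- liver and at 96.6, 6.64 and 8.03 CPM in WT liver (log2 fold change 1.45 ± 0.26, edgeR adjusted p = 0.239). The 4 genes of T and NK cells had a median of -0.65, the 8 endothelial genes one of 0.03 and the 6 cholangiocyte genes one of -0.34. The lists of pancreatic acinar cells and adipocytes had 1 gene tested each, Cela1 at -0.29 and Fabp4 at 1.13. What part these cell types have in the other results was not tested.

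Besides the called genes, the protein-coding genes with the smallest p among consistent genes are given as values, since none passed the adjusted threshold in edgeR. Choosing consistent genes by smallest p favours genotypes that do not overlap, and the share of all genes without overlap was not counted. In the higher direction the first was Dusp1, a phosphatase that switches off MAP kinases after stress signals. It stood at 85.2, 59.0 and 66.4 CPM in RepB-/- 1, 2 and 3 and at 27.2, 23.2 and 16.5 CPM in WT 1, 2 and 3, without overlap (log2 fold change 1.65 ± 0.18, edgeR adjusted p = 0.0823).

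Col5a3, a chain of type V collagen, was at 4.13, 19.3 and 30.6 CPM against 1.09, 3.93 and 5.77 CPM, with a log2 fold change of 2.22 ± 0.28. Scai, which restrains MRTF-driven transcription, was at 4.34, 5.36 and 3.65 CPM against 0.937, 0.568 and 0.549 CPM. Dsg1c, a desmosomal cadherin, was at 27.6, 24.1 and 41.3 CPM against 8.10, 7.03 and 8.75 CPM. In Scai and Dsg1c every RepB-/- library was above every WT library, and in Col5a3 RepB-/- 1 lay among the WT values.

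Slc25a25, a mitochondrial carrier of ATP and phosphate, was at 431, 256 and 253 CPM against 176, 114 and 84.3 CPM. Nkiras2, an inhibitor of NF-kappaB signalling, was at 16.2, 14.3 and 15.5 CPM against 6.74, 6.43 and 7.35 CPM. Neither overlapped between genotypes, with log2 fold changes of 1.34 ± 0.19 and 1.17 ± 0.17. Nfe2l3, a transcription factor, had a log2 fold change of 2.26 ± 0.32. Hemgn and Tubb1, genes of red cell and platelet precursors, were at 8.31 and 17.2 CPM in RepB-/- 1 and at most 0.525 CPM in RepB-/- 2 and 3, and Ppp1r3g, a glycogen-targeting subunit of protein phosphatase 1, was at 65.8 CPM in RepB-/- 1 and at 0.854 and 0.350 CPM in RepB-/- 2 and 3. Ppp1r3g and Hemgn had no count in WT 2 and WT 3. The edgeR adjusted p-values of these genes lay between 0.0823 and 0.158.

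In the lower direction Celsr1, an atypical cadherin of planar cell polarity, was at 1.78, 5.34 and 3.47 CPM in RepB-/- liver and at 7.29, 36.3 and 30.8 CPM in WT liver (log2 fold change -2.64 ± 0.28, edgeR adjusted p = 0.0759). Hsd17b13, a lipid droplet enzyme of hepatocytes, was at 98.1, 148 and 109 CPM against 381, 355 and 408 CPM, a log2 fold change of -1.70 ± 0.21. Both were without overlap between the genotypes. Snx19, a sorting nexin, was at 11.9, 15.3 and 17.5 CPM against 27.0, 44.5 and 44.3 CPM. Thnsl2, 9930104L06Rik and Chka, the choline kinase of phosphatidylcholine synthesis, had log2 fold changes of -1.11, -1.57 and -0.99.

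The lower set also held 4 histone H2B genes of the Hist1 cluster on chromosome 13. Hist1h2bq was at 0.158, 0.675 and 0.408 CPM in RepB-/- liver and at 1.25, 8.52 and 7.71 CPM in WT liver, with a log2 fold change of -3.63 ± 0.37 and an edgeR adjusted p of 0.0680. Hist1h2br, Hist1h2bl and Hist1h2bk had log2 fold changes of -3.63, -4.81 and -3.93. These rest on few counts, with Hist1h2bl at 2, 3 and 1 counts in RepB-/- 1, 2 and 3 and at 15, 71 and 123 in WT 1, 2 and 3. Hist1h2b genes were looked up as a family after the values were seen, and over all autosomal genes 11.9% were consistent in each direction. Of the 10 Hist1h2b genes tested, 5 were consistently lower, the 4 above among them, and 2 consistently higher. The most abundant, Hist1h2bc, was at 56.2, 96.6 and 112 CPM against 12.2, 92.9 and 62.0 CPM, so genes of the cluster differed in direction. These genes are near-identical in their coding sequence, so their single levels are uncertain. Of 7 other Hist1 genes tested, 1 was consistently lower and 0 higher. The libraries are poly(A) libraries, so histone transcripts without a poly(A) tail are not measured by them.

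**Figure D4:**
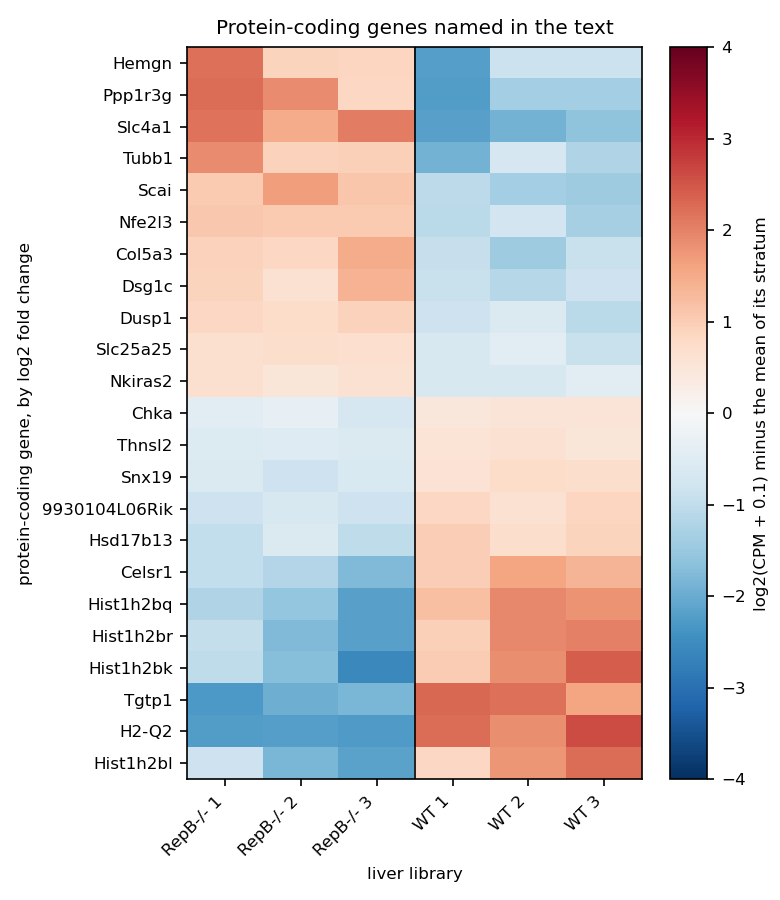
Protein-coding genes described above, in rows by log2 fold change, and the 6 liver libraries in columns, coloured by log2(CPM + 0.1) minus the mean of the libraries of the same stratum, where replicate 1 is a stratum of 2 libraries and replicates 2 and 3 form a stratum of 4. Every gene has 1 colour in the RepB-/- libraries and the other in the WT libraries, because consistency was part of the choice, and the paler rows near the middle hold log2 fold changes near 1.

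Hepatic pathways were described by lists of known members. Of the 30 pathway lists, none held a gene called by edgeR, so the values below are counts of consistent genes, to be read against 11.9% in each direction over all autosomal genes, and medians, to be read against 0.01. DESeq2 called members of some lists. The most were in the lists of immediate early genes (5 higher of 19), clock genes (3 higher and 1 lower of 17) and the unfolded protein response (1 higher and 2 lower of 22). Over all autosomal genes tested DESeq2 called 1.16% higher and 0.817% lower.

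Among genes of glucose production, a pair of enzymes was consistently higher in RepB-/- liver without passing the test. Pck1, the cytosolic PEP carboxykinase, stood at 3172, 1923 and 1519 CPM in RepB-/- 1, 2 and 3 and at 1816, 466 and 461 CPM in WT 1, 2 and 3. G6pc, the catalytic subunit of glucose-6-phosphatase, stood at 1011, 456 and 310 CPM against 342, 202 and 161 CPM. These were the 2 consistent genes of the 10 in the gluconeogenesis list, with log2 fold changes of 1.53 ± 0.30 and 1.24 ± 0.24 and edgeR adjusted p-values of 0.297 each, and the list's median was 0.45, with a median difference of 1.24 in replicate 1 and -0.02 in replicates 2 and 3. The glycolysis list of 19 genes had 5 consistently higher and 3 consistently lower members.

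Genes of lipid synthesis differed between the strata. The fatty acid list had a median log2 difference of -0.04 in replicate 1 and -0.58 in replicates 2 and 3, and the sterol list had 0.15 and -0.42. Of 17 fatty acid synthesis genes, 4 were consistently lower and 1 consistently higher, with a median of -0.22. Elovl6, a fatty acid elongase, was at 3.2, 35.2 and 24.1 CPM in RepB-/- liver and at 6.02, 117 and 78.6 CPM in WT liver (log2 fold change -1.46 ± 0.28, edgeR adjusted p = 0.285). Pnpla3, a lipid droplet lipase, was at 7.03, 2.44 and 1.49 CPM against 9.35, 11.2 and 9 CPM.

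Of 23 sterol synthesis genes, 6 were consistently lower, 1 consistently higher and 2 had a log2 fold change above 0, with a median of -0.24. Mvd, the mevalonate diphosphate decarboxylase, was at 3.48, 26.6 and 18.6 CPM against 4.66, 69.7 and 54.3 CPM, and Dhcr7, the last enzyme of cholesterol synthesis, was the member that was consistently higher (log2 fold change 0.49 ± 0.20). The summed level of the sterol list was 1080 CPM in RepB-/- 1 and 1024 CPM in WT 1, against 3463 to 5905 CPM in replicates 2 and 3. That of the fatty acid list was 1855 and 1948 CPM, against 4496 to 6076 CPM. Single members such as Pnpla3 differed from this.

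Bile acid genes (18 tested) had 0 consistent members in either direction and a median of -0.01. Among 20 cytochrome P450 genes of families 1 to 3 and their regulators, 3 were consistently higher and 4 consistently lower. Nr1i3, the nuclear receptor CAR, was at 43.5, 123 and 114 CPM against 66.6, 199 and 259 CPM (log2 fold change -0.84 ± 0.19), and Cyp2f2, an enzyme of periportal hepatocytes, was at 100.1, 2183 and 1827 CPM against 18.9, 1069 and 1239 CPM (log2 fold change 1.32 ± 0.37). The 25 PPAR alpha targets had 3 consistent members in each direction, and the 9 genes of the urea cycle and ammonia had 2 lower and 0 higher.

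Among secreted proteins, 10 of 34 complement and coagulation genes were consistently higher and 1 was consistently lower, with 27 above 0 and a median of 0.19. C9, the pore-forming component of complement, was at 73.7, 1120 and 636 CPM in RepB-/- liver and at 26.7, 212 and 221 CPM in WT liver, and its log2 fold change of 1.84 ± 0.28 had an edgeR adjusted p of 0.189. Hc, complement component C5, was at 697, 1144 and 1150 CPM against 352, 619 and 651 CPM, without overlap. The 15 apolipoprotein genes had 1 consistent member in each direction, Apoa1 higher and Apoa4 lower.

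The 23 acute phase genes had 2 consistently lower members and 0 higher, Orm3 and Hamp. Hamp, which encodes the iron hormone hepcidin, was at 17.2 CPM in RepB-/- 1 and had no count in RepB-/- 2 and 3, against 23, 181 and 504 CPM in WT 1, 2 and 3. WT 2 and WT 3 held 7013 and 23849 counts. The edgeR log2 fold change of Hamp was -9.49 ± 3.75, and -5.29 without the library labelled RepB-/- replicate 2. Of 18 genes of iron handling, looked up after these values were seen, 5 were consistently lower, 2 consistently higher and 0 called by edgeR. Over all autosomal genes 11.9% were consistent in each direction. DESeq2 called Hamp and its copy Hamp2, with adjusted p-values of 7.1e-05 and 0.0049. Bmp6, a signal that raises hepcidin, was at 1.03, 1.81 and 0.408 CPM against 1.70, 3.33 and 2.37 CPM, and Slc40a1, the iron exporter ferroportin, had a log2 fold change of -0.03 ± 0.20.

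Lists of stress genes pointed in both directions. Of 19 immediate early genes, which respond to signals within minutes, 6 were consistently higher and 0 lower, with a median of 0.54, and 0.44 without the library labelled RepB-/- replicate 2. Beside Dusp1 these were Klf2, Zfp36, Jun, Nr4a1 and Btg2. Jun stood at 87.9, 30.5 and 21.6 CPM in RepB-/- liver and at 36.1, 14.7 and 11.2 CPM in WT liver (log2 fold change 1.10 ± 0.21). Cebpb, a transcription factor of the hepatocyte list, was at 144, 175 and 176 CPM against 105, 49.6 and 51.8 CPM, without overlap.

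Of 22 genes of the unfolded protein response, 10 were consistently lower and 1 consistently higher, with a median of -0.33. The chaperone genes Hyou1 and Pdia6 were among the lower ones, Pdia6 at 233, 291 and 238 CPM against 437, 393 and 449 CPM (log2 fold change -0.75 ± 0.19, edgeR adjusted p = 0.414). Asns, the asparagine synthetase of amino acid shortage, was the member that was higher, at 16.4, 2.07 and 1.14 CPM against 7.90, 0.465 and 0.169 CPM. Of 11 heat shock genes 4 were consistently lower and 0 higher, and of 12 NRF2 targets 1 was consistent in each direction.

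Clock genes were split. Of 17 tested, 4 were consistently higher (Per1, Per3, Nr1d2 and Dbp) and 4 consistently lower (Arntl, Npas2, Per2 and Cry1). Per1 was at 50.4, 10.3 and 16.4 CPM in RepB-/- liver and at 25.3, 5.09 and 3.93 CPM in WT liver, and Arntl, the core activator, was at 14.8, 28.7 and 25.0 CPM against 22.4, 40.9 and 39.6 CPM. The log2 fold changes were 1.37 ± 0.25 and -0.59 ± 0.14. The labels give no time of day at which livers were taken.

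In the growth hormone and IGF list 7 of 20 genes were consistently higher and 0 lower, with a median of 0.16. Igfbp1, an IGF binding protein of fasting and fetal liver, was at 2147, 143 and 65.2 CPM in RepB-/- liver and at 1361, 21.5 and 25.0 CPM in WT liver. Of 8 fetal liver genes tested 2 were consistently higher and 1 lower. Igf2bp3, an RNA-binding protein of fetal tissue, was at 24.3, 4.31 and 6.97 CPM against 23.2, 0.801 and 1.12 CPM, and the maternally expressed noncoding RNA Meg3 was at 5.35, 0.834 and 1.28 CPM against 14.4, 15.8 and 8.09 CPM.

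No proliferation gene was called. All 32 mitosis genes had a log2 fold change above 0, from 0.28 to 1.26 with a median of 0.81, and all 32 remained above 0 without the library labelled RepB-/- replicate 2. Only 2 of the 32 were consistent, and 0 had an unadjusted p under 0.05 in edgeR, against 4.55% of all autosomal genes in the higher direction. Mki67, the proliferation antigen Ki-67, stood at 54.2, 9.06 and 28.3 CPM in RepB-/- liver and at 30.4, 4 and 15.1 CPM in WT liver, so RepB-/- 2 lay below WT 3, and the log2 fold change was 0.92 ± 0.58. The 39 DNA replication genes had 4 consistent members in each direction and a median of 0.13, with a median difference of -0.25 in replicate 1 and 0.33 in replicates 2 and 3.

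No gene of the centrosome and spindle orientation list passed the test. The 22 genes had a median of -0.02, with 2 consistently higher and 1 consistently lower. Cep131, a centriolar satellite protein, was at 7.44, 6.51 and 6.07 CPM against 7.47, 4.78 and 6.70 CPM, and Gpsm2, which orients the mitotic spindle, had a log2 fold change of -0.06 ± 0.16. Gpsm1 was at 5.11, 2.03 and 1.49 CPM against 5.18, 0.723 and 0.845 CPM (log2 fold change 0.75 ± 0.37, edgeR adjusted p = 0.665). Of 17 p53 targets 5 were consistently higher and 1 lower.

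Genes of the Polycomb complexes pointed in both directions. Of 29 tested, 8 were consistently lower and 3 consistently higher, with a median of -0.08. The lower ones included the core genes Ring1, Bmi1, Eed and Suz12, of which Ring1 had 13.8, 17.1 and 16.1 CPM against 15.9, 21.5 and 23.1 CPM (log2 fold change -0.35 ± 0.15). Cbx7, a chromodomain subunit of complex 1, was higher at 5.65, 8.66 and 9.04 CPM against 1.41, 4.16 and 4.67 CPM (log2 fold change 1.32 ± 0.28, edgeR adjusted p = 0.320).

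Among immune lists, the 28 interferon-stimulated genes had 2 consistently higher and 3 consistently lower members and a median of -0.02, which was 0.14 without the library labelled RepB-/- replicate 2. The 16 genes of MHC and peptide loading had 4 consistently lower and 0 higher. Tap2, a subunit of the peptide transporter, was at 38.8, 39.8 and 43.2 CPM against 55.4, 58.7 and 61.8 CPM, without overlap (log2 fold change -0.53 ± 0.14). The class II gene H2-Eb1 was at 0.533, 0.298 and 5.60 CPM against 12.3, 14.2 and 41.3 CPM. The 72 ribosomal protein genes had 7 consistently higher and 1 lower, and their median went from 0.06 to -0.22 without the library labelled RepB-/- replicate 2. The 85 oxidative phosphorylation genes had 3 higher and 6 lower and a median of -0.05, which was -0.22 without that library.

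The sex-biased lists moved with the library that held Y-linked counts. The 18 male-biased liver genes had a median of 0.87, and 0.10 without that library. The 18 female-biased genes had a median of -1.10, and -0.28 without it. Elovl3, a male-biased elongase, was at 172 CPM in the library labelled RepB-/- replicate 2, at 2.01 to 2.09 CPM in RepB-/- 3, WT 2 and WT 3, and had no count in replicate 1. Cux2, a female-biased transcription factor, was at 0.576 CPM in that library and at 9.45 to 27.0 CPM in the other 5. A1bg, also female-biased, was at 0.0794 CPM in that library and 3.44 CPM in RepB-/- 3, against 931 and 2756 CPM in WT 2 and WT 3, so for this gene RepB-/- 3 was low as well.

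**Figure D5:**
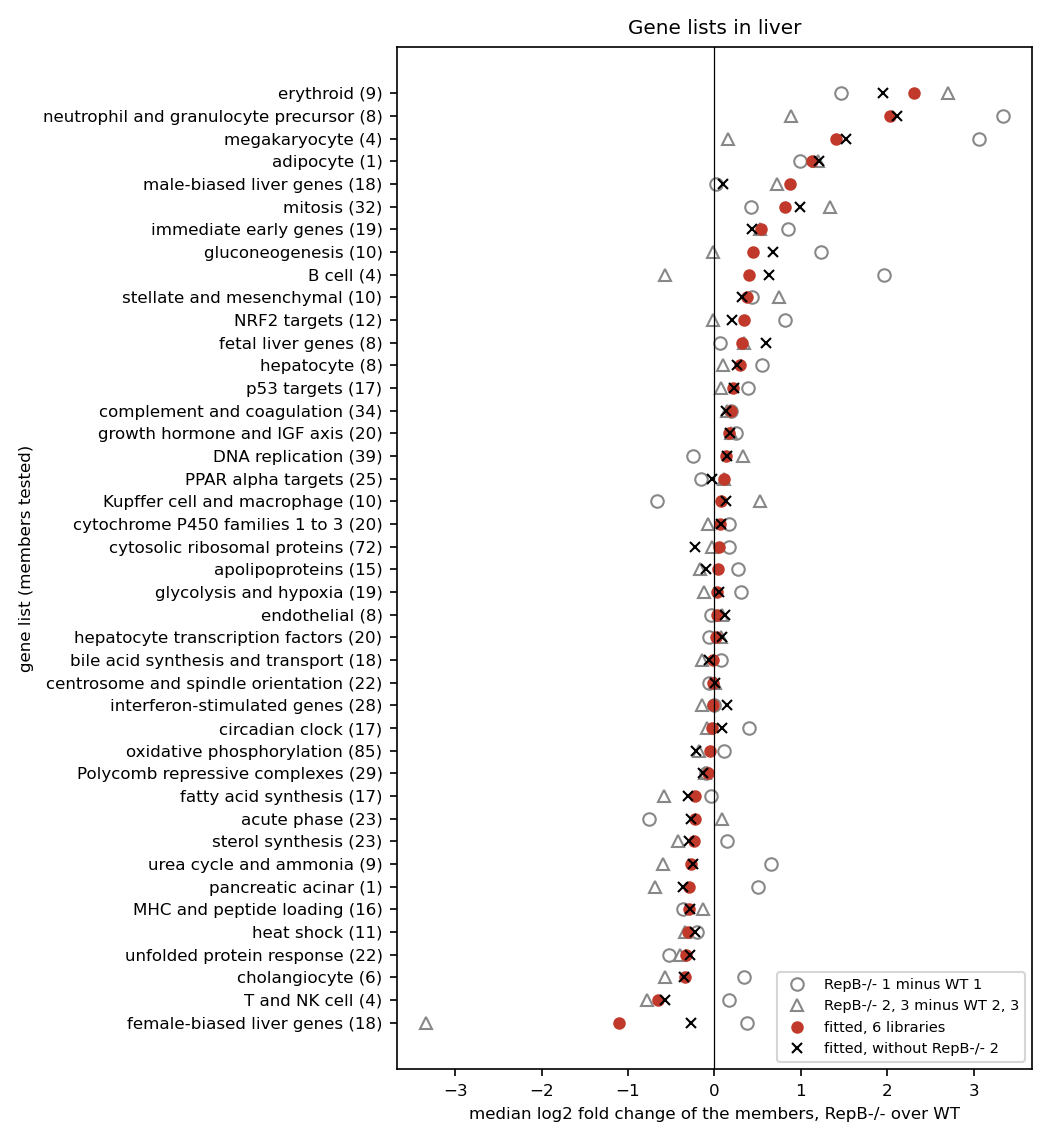
Median log2 fold change of each gene list, RepB-/- over WT, with the number of members tested in parentheses. Filled circles are the fit over 6 libraries, crosses the fit without the library labelled RepB-/- replicate 2, open circles the replicate 1 difference and open triangles the difference in replicates 2 and 3. The erythroid list is high by every measure, and the female-biased list is at -1.10 in the fit over 6 libraries, below 0 in replicates 2 and 3 and above 0 in replicate 1.

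Whether the genotype difference was the same in replicate 1 as in replicates 2 and 3 was tested by the product of the terms. Replicate 1 holds 1 library of each genotype, so the spread comes from replicates 2 and 3 alone and these single libraries are assumed to vary like the others. The test passed for 2 autosomal genes (0.0129%, and 0.0124% of genes on every chromosome), Mir8114 and Hamp2, and 850 genes (5.47%) had an unadjusted p under 0.05. With the replicate number as a block there were 8, and without 1 of the libraries of replicates 2 and 3 there were 11 to 29. Hamp2 (chr7:30922372-30924681, minus strand), the second hepcidin gene of the mouse, was at 7.54 CPM in RepB-/- 1 and 1.00 CPM in WT 1, and at 0.0794 and 0.117 CPM in RepB-/- 2 and 3 against 77.5 and 95.5 CPM in WT 2 and 3. The order of the genotypes was opposite in the strata, with a difference of the log2 effects of 12.69 ± 0.54 and an edgeR adjusted p of 0.0134. Hamp and Hamp2 are close copies, and reads they share could be counted to either.

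Mir8114 (chr1:153899926-153900036, plus strand) is a microRNA gene whose first bases lie just before Glul, the glutamine synthetase gene, and whose other bases overlap the start of Glul. It was at 20.6, 41.1 and 37.0 CPM in RepB-/- 1, 2 and 3 and at 26.4, 0.0258 and 0.0211 CPM in WT 1, 2 and 3. WT 2 and WT 3 held 1 count each, and the replicate 1 libraries were alike. The difference of the log2 effects was -10.91 ± 0.49 with an edgeR adjusted p of 0.0134. Glul itself was at 431, 723 and 919 CPM against 534, 1065 and 1047 CPM. Poly(A) libraries do not measure mature microRNAs, and reads from Glul transcripts and from Mir8114 cannot be told apart here. The mature sequence in RefSeq, at chr1:153899989-153900009 on GRCm38.p6, is given with its seed in capitals to show which stretch the gene's name refers to.

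mmu-miR-8114: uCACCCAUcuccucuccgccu

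The liver values were set beside those of primary MEFs of the same genotypes, fitted by themselves. In MEFs 2397 of 12871 autosomal genes rose (18.6%) and 2583 fell (20.1%) in RepB-/- cells by the same edgeR test. None of the 7 genes called in liver was among the genes tested in MEFs. Of the 1153 liver genes that were consistent and had an unadjusted p under 0.05, 809 were tested in MEFs, 342 were called there and 161 of these had the direction seen in liver. Over all 11594 autosomal genes tested in both, 4374 were called in MEFs and 2104 of these had the direction seen in liver. For 368 of the 809 the sign was the same, and over all 11594 it was the same for 5686.

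Single genes showed each pattern. Celsr1 was lower in MEFs too (log2 fold change -1.86, edgeR adjusted p = 0.000738), as was Chka (-1.36), and Col5a3 was higher in both (0.67 in MEFs). Klf2 had a log2 fold change of 0.98 in MEFs and 1.00 in liver. Slc25a25 was lower in MEFs (-0.74) and had a log2 fold change of 1.34 in liver. The chaperone gene Pdia6 was higher in MEFs (0.50) and had a log2 fold change of -0.75 in liver. Hist1h2bq was at -0.09 in MEFs, and Dusp1 at -0.23, neither called there.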

How the data were processed

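The authors deposited whole-number read counts per gene for each liver and MEF library, with TPM for liver, and the 12 FPKM columns were not used. The deposited TPM values, scaled by the authors per transcript length, entered no test. The study's methods name Cutadapt, Hisat2 and DESeq2 for MEF RNA-seq, and the submitters' processing notes name Trim Galore 0.4.1, STAR 2.7.0, HTSeq 0.12.4 and deepTools 3.5.0 for the series; which of them counted the liver reads is not given in the sources used here. Liver coordinates are those of GRCm38, with 48580 of 51826 genes at the same position in GENCODE M21.

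Groups came from the library labels, where B was read as RepB-/- and W as WT. Counts were scaled by TMM in edgeR 4.0.16 (R 4.3.3), filtered with filterByExpr and fitted by quasi-likelihood with terms for genotype and for replicate 1, and calls had a Benjamini-Hochberg adjusted p under 0.05 over all 16080 genes tested. Log2 CPM used a prior count of 2. Simulated counts in which 200 genes were changed served to test this fit. Libraries of the same number correlated, after removal of genotype means, with 0.36 to 0.71, and libraries 2 and 3 of different numbers with 0.404 to 0.406. Because every same-number pair exceeded 0.1, the number was also used as a block. Replicates 2 and 3 correlated less with the same number (0.361 and 0.365) than with the other number, so these values do not show a pairing among them.

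The protein-coding genes named were consistent genes with a mean of at least 1 CPM in the higher genotype, up to 12 per direction by size among called genes and then by smallest p, up to 5 by level, up to 4 per list by smallest p, and Cep131, Gpsm1, Gpsm2 and Mki67, which the study names. A pair of genes that this rule names is not reported here. The genes and lists were chosen with earlier results of these data known. Alternatives were DESeq2 1.42.0, its size factors, TMM over autosomes, other filters, no stage term, the block, replicates 2 and 3 alone and leaving out each library. Robust quasi-likelihood and a fit of protein-coding genes alone were chosen after seeing the data. Pseudogenes were matched with BLAST 2.17.0. The promoter table had a sequence for both lower called protein-coding genes.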

Additional observations from a re-analysis of the deposited data

Results flagged for a closer look

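The genotype difference of Mir8114 differed between replicate 1 and replicates 2 and 3 by -10.91 on the log2 scale, and that of Hamp2 by 12.69, both by the product term of the edgeR fit. Replicate 1 has 1 library of each genotype, so these differences rest on single libraries that are assumed to vary like replicates 2 and 3. Both were also among the product-term calls of DESeq2 and of the fit with the replicate number as a block. Mir8114 stood at 20.6, 41.1 and 37.0 CPM in RepB-/- 1 to 3 and at 26.4, 0.0258 and 0.0211 CPM in WT 1 to 3. The library labelled RepB-/- replicate 2 held 4342 counts of Ddx3y, Eif2s3y, Kdm5d and Uty, which no comparison used, against 0 or 1 in the other 5 liver libraries, and its place in its group was taken from its label.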

How the results depend on the processing

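The 3 higher and 4 lower calls were also made with DESeq2's size factors, TMM over autosomal genes, a mean CPM of at least 1 and robust quasi-likelihood. DESeq2 called 180 higher and 127 lower genes, and no filter on low counts gave 15 and 11. Without the term for replicate 1 there were 1 higher and 3 lower calls, with replicates 2 and 3 alone 1 higher and 1 lower call, 0 of them among the 7, and with protein-coding genes alone 1 higher and 2 lower calls. Leaving out a library gave from 0 to 2 higher and from 0 to 2 lower calls: 0 higher without WT replicate 2 (461 genes at an unadjusted p under 0.05), and 0 lower without RepB-/- replicate 2 (531 genes), where Slc4a1 was the 1 higher call. The product term gave 132 calls with DESeq2, 9 with no filter, 8 with the replicate block and 11 to 29 without a library. The causes were not tested. Each of the 7 called genes kept its direction in every setting that tested it, with the adjusted p of Slc4a1 reaching 1 without the term for replicate 1. With the replicate number as a block there were 3 higher and 3 lower calls, of which 2 and 3 were among the 3 and 4. For MEFs every count stayed within 1.5 times of 2397 and 2583. In the simulation, with 200 genes changed, the test found 16.3% of 2-fold and 76% of 4-fold changes, shares that do not carry over to the liver data.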

Other observations

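Of the 180 higher and 127 lower autosomal calls of DESeq2 in liver, 173 and 122 were consistent over libraries, which rests on the same values as the calls. Protein-coding genes made up 149 of the higher and 89 of the lower calls, and processed pseudogenes 9 and 15. By chromosome, chromosome 2 held 17 higher and 3 lower of these calls among 1224 genes tested, and chromosome 13 held 4 higher and 11 lower among 602. These 2 chromosomes were chosen after their values were seen, and no difference between chromosomes was tested.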
